A study of Mus musculus with 20 samples.

Results

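Expression of 8 genes that mark bile duct cells and liver progenitors was followed across 3 kinds of MYC-driven mouse liver tumor and in liver. The genes were Sox9, Sox4, Krt7, Krt19, Krt23, Epcam, Prom1 and Cd24a. They were taken by gene symbol from the 50559 genes of the deposited counts, and each symbol had 1 row in both tables. All 8 were among the 14333 genes tested, which had at least 1 CPM (counts per 1000000 reads counted on genes) in at least 5 of the 20 libraries. Krt7 met that filter in exactly 5 libraries, 1 of which was sgTrp53 + MYC replicate 2, and would not have passed without it.

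The 4 groups held 5 libraries each, and all mice carried the label C57Bl6J, wild type. According to the methods, tumors were raised in female mice injected at 6 to 8 weeks of age through the tail vein, under high pressure, with plasmids that hepatocytes take up (hydrodynamic gene transfer). A plasmid for the Sleeping Beauty transposase SB100X was injected with them, an enzyme that inserts transposon cargo into the genome of transfected cells. All tumor mice received MYC driven by the EF1a promoter. The Aldafermin + MYC and FGF19 + MYC mice also received human FGF19 or Aldafermin, an analog made by mutagenesis of the FGF19 coding sequence, and the sgTrp53 + MYC mice a CRISPR vector with a guide against Trp53. Whether that CRISPR vector was inserted into the genome is not stated in the methods. The control livers were labelled healthy and non treated, whereas the methods describe control mice injected with an RFP plasmid. For the sgTrp53 + MYC tumors the treatment label reads none, and the group was taken from the titles. Tumors came from independent mice, and the age at harvest of each mouse was not given in the sources used here.

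FGF19 is a gut hormone that lowers bile acid synthesis in hepatocytes, and MYC is a transcription factor that drives growth. Hepatocytes and cholangiocytes, the cells of the bile ducts, both descend from the hepatoblasts of the fetal liver. Cholangiocytes are known for the transcription factor SOX9, the paired keratins KRT7 and KRT19, and the surface proteins EPCAM, PROM1 (CD133) and CD24. SOX4 acts with SOX9 in duct formation. Several of these genes are also used as markers of progenitor cells and of liver tumors with a biliary or progenitor phenotype, and they are low in mature hepatocytes. In RNA from whole tumors or livers, fewer cells of a type and less RNA per cell cannot be told apart.

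The reads counted on genes amounted to 18004977 to 66354724 in a library, at least 54042455 in sgTrp53 + MYC tumors and at most 44427184 elsewhere. With this depth, 3 counts corresponded to 0.0346 to 0.215 CPM, which is the upper limit that a count of 0 allows and covers counting error only. The 5 sgTrp53 + MYC libraries formed a table of their own, in which 11.1% to 14.6% of the reads fell on more than 1 gene, against 3.03% to 6.30% in the other 15 libraries. What sets the tables apart and what sets these tumors apart from the rest of the samples cannot be told apart. The targeted gene Trp53 averaged 138 ± 32.5 CPM (SD, n = 5) in Aldafermin + MYC, 139.5 ± 17.9 CPM (SD, n = 5) in FGF19 + MYC and 46.8 ± 22.6 CPM (SD, n = 5) in sgTrp53 + MYC tumors, and 32.8 ± 2.98 CPM (SD, n = 5) in livers. It was lower in every sgTrp53 + MYC tumor than in any other tumor (log2 fold change of the FGF19 + MYC and Aldafermin + MYC tumors, pooled, against sgTrp53 + MYC tumors 1.57, edgeR quasi-likelihood test, Benjamini-Hochberg adjusted p = 1.59e-04). All 10 genes of a hepatocyte marker list were among the genes tested, and their summed level was at least 3833 CPM in each library. The strand setting of the read counting was not given in the sources used here, and 7 of the 8 genes, all but Krt23, overlap an annotated gene on the other strand, whose reads cannot then be told apart. Sox4 and Prom1 also overlap an annotated gene on the same strand (Gm61652 and Gm42716). Where exons are shared, no strand setting separates those reads.

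The library of sgTrp53 + MYC replicate 2 stood apart from the other 14 tumors in several of the 8 genes. When all 14333 genes were ranked by how far this library exceeded the highest of the other 14 tumors, Krt7 ranked 1 and Krt19 ranked 2, followed by Epcam at rank 10 and Sox9 at rank 27. Cd24a ranked 225, Sox4 2970, Krt23 13282 and Prom1 13757. The library held 19 genes more than 8-fold above every other tumor, whereas sgTrp53 + MYC replicate 4 held 2 and each of the other 13 tumors held 0. Results are therefore given with all libraries and, where they differ, without this library.

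Sequences upstream of the genes are shown for Krt7 and Epcam, which were both raised in that library, for Sox4, which separated the tumor groups, and for Krt23, which did not follow the other keratins. Each sequence holds the 250 bases before the transcription start that RefSeq gives (GRCm38.p6 table), placed by an exact and unique match on GRCm39 at chr15:101310034-101310283 (plus strand), chr17:87943157-87943406 (plus), chr13:29137683-29137932 (minus) and chr11:99383947-99384196 (minus). They are written 5′ to 3′ on the gene's strand, with matches to the motifs searched in capitals.
Krt7: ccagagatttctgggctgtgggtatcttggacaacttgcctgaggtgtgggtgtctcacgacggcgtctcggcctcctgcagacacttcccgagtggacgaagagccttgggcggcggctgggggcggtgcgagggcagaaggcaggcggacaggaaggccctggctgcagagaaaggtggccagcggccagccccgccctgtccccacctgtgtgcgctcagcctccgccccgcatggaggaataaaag
Epcam: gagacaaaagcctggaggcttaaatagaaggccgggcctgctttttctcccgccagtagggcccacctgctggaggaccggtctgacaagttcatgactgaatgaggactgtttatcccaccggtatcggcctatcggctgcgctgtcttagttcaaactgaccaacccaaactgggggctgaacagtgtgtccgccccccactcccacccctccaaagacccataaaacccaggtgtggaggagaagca
Sox4: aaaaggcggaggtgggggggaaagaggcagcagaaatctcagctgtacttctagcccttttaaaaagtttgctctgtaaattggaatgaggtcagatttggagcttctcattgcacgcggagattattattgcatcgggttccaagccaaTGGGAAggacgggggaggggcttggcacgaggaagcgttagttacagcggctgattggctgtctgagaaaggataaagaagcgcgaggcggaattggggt
Krt23: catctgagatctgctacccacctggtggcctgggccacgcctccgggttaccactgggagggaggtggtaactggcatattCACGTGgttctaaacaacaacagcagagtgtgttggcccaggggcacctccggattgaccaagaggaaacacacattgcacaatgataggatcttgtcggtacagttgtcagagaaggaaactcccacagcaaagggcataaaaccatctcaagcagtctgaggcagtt

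The motifs, searched on both strands, were CACGTG (the E-box that MYC and other factors bind), TGGGAA (the core bound by RBPJ, the nuclear effector of Notch), ACAAAG (a core shared by SOX and TCF factors) and TATAAA (the TATA box). The Krt23 window held the E-box letters 169 bases before the start, letters that 6.02% of 32851 mouse promoters of this length contain. The Sox4 window held the RBPJ core 100 bases before the start, which 21.6% of promoters contain, and 1 of the 2 windows of Prom1 held it as well, 116 bases before the start. No match to any of the 4 motifs lay in the Krt7 or Epcam window. ACAAAG, found in 16.5% of promoters, and TATAAA, found in 12.4%, were in none of the windows of the 8 genes that could be searched, and a match is a description of letters only. Sox9, Krt19 and Cd24a were not searched.

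**Figure D1:**
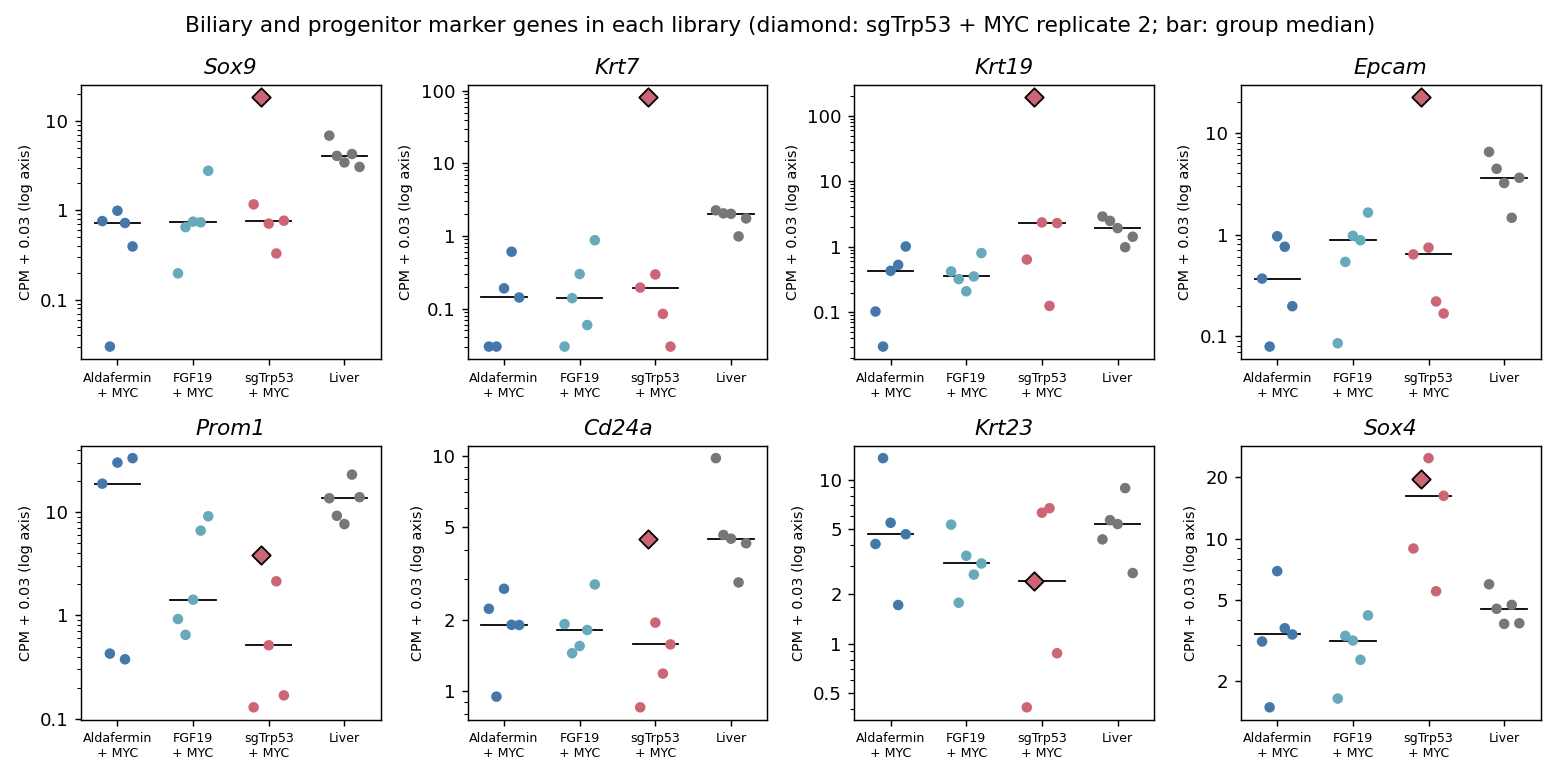
Level of each of the 8 genes in the 20 libraries, as CPM + 0.03 on a log axis, by group on the horizontal axis. Each point is 1 library, the diamond is sgTrp53 + MYC replicate 2 and the bar is the group median. The diamond lies above all other libraries for Sox9, Krt7, Krt19 and Epcam, whereas Sox4 is raised in the sgTrp53 + MYC group and Prom1 spreads widely within the tumor groups.

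Sox9 (GRCm39 chr11:112673009-112678586, plus strand) encodes the transcription factor that marks the duct lineage from its first appearance. In livers its level was 6.81, 4.03, 3.40, 4.23 and 3.03 CPM in replicates 1 to 5. In Aldafermin + MYC tumors it was 0.729, 0, 0.961, 0.692 and 0.365 CPM, and in FGF19 + MYC tumors 0.167, 0.619, 0.718, 0.704 and 2.74 CPM. All 10 of these tumors lay below the lowest liver, although FGF19 + MYC replicate 5 came close to it. The sgTrp53 + MYC tumors held 1.14, 18.3, 0.680, 0.300 and 0.737 CPM, so that 4 tumors lay below every liver and replicate 2 above every liver. The count of 0 in Aldafermin + MYC replicate 2 allows up to 0.0744 CPM.

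Sox4 (chr13:29132902-29137696, minus strand) encodes a related transcription factor of the SOX family, active in progenitors of many tissues. Livers held 5.95, 4.51, 3.80, 4.71 and 3.83 CPM. Aldafermin + MYC tumors held 3.11, 1.46, 6.91, 3.61 and 3.37 CPM and FGF19 + MYC tumors 1.62, 3.31, 3.14, 2.52 and 4.18 CPM, within or below the range of the livers except for Aldafermin + MYC replicate 3. The sgTrp53 + MYC tumors held 8.93, 19.5, 24.8, 5.50 and 16.2 CPM. Of these, 4 lay above every other tumor and every liver, and replicate 4 lay above all but Aldafermin + MYC replicate 3 and liver replicate 1. Unlike that of Sox9, the Sox4 level of replicate 2 was not the highest of its group.

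Krt7 and Krt19 encode type II and type I keratins of simple epithelia and are the usual histological markers of bile ducts. Krt7 (chr15:101308924-101328194, plus strand) was at 2.22, 2.02, 1.99, 0.956 and 1.71 CPM in livers, 0, 0, 0.160, 0.577 and 0.112 CPM in Aldafermin + MYC tumors and 0, 0.109, 0.269, 0.0293 and 0.844 CPM in FGF19 + MYC tumors. All 10 of these tumors lay below the lowest liver. The sgTrp53 + MYC tumors held 0.165, 80.9, 0.265, 0.0545 and 0 CPM, of which replicate 2 corresponded to 5782 reads and exceeded the next highest tumor 95.9-fold. Outside that library, no tumor had more than 24 Krt7 reads, and 4 tumors had none.

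Krt19 (chr11:100031636-100039491, minus strand) was at 2.87, 2.46, 1.90, 0.956 and 1.39 CPM in livers, 0.0729, 0, 0.400, 0.50 and 0.982 CPM in Aldafermin + MYC tumors and 0.391, 0.291, 0.180, 0.323 and 0.773 CPM in FGF19 + MYC tumors. The FGF19 + MYC tumors lay below every liver, and the Aldafermin + MYC tumors did so except for replicate 5, which just exceeded the lowest liver. Levels in sgTrp53 + MYC tumors were 0.609, 191, 2.33, 0.0953 and 2.27 CPM, replicate 2 being 82.0-fold above the next highest tumor. Replicates 3 and 5 of this group were within the range of the livers, and replicates 1 and 4 below it.

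Krt23 (chr11:99366873-99383963, minus strand) encodes a type I keratin that is induced in some liver diseases, and it behaved differently. It was at 4.30, 5.65, 5.35, 8.88 and 2.67 CPM in livers, 4.03, 13.5, 5.44, 1.69 and 4.63 CPM in Aldafermin + MYC tumors and 5.30, 1.75, 3.41, 2.61 and 3.06 CPM in FGF19 + MYC tumors. It was at 0.379, 2.39, 6.27, 6.69 and 0.844 CPM in sgTrp53 + MYC tumors. The ranges of all 4 groups overlapped, the highest library was Aldafermin + MYC replicate 2, and sgTrp53 + MYC replicate 2 was the median of its group. Aldafermin + MYC replicate 2 thus had the highest Krt23 level while 0 reads of Sox9, Krt7 and Krt19 were counted in it.

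Epcam (chr17:87943407-87958557, plus strand) encodes an epithelial adhesion protein of cholangiocytes and progenitors. Its level was 6.46, 4.40, 3.18, 1.43 and 3.59 CPM in livers, 0.340, 0.0496, 0.934, 0.731 and 0.168 CPM in Aldafermin + MYC tumors and 0.0558, 0.510, 0.943, 0.851 and 1.62 CPM in FGF19 + MYC tumors. Only FGF19 + MYC replicate 5 among these 10 tumors reached the range of the livers. In sgTrp53 + MYC tumors it was 0.609, 22.2, 0.715, 0.191 and 0.138 CPM, with replicate 2 13.7-fold above the next highest tumor and the other 4 below every liver.

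Prom1 (chr5:44150962-44259395, minus strand) encodes a pentaspan membrane protein used as a progenitor marker. Livers held 13.6, 9.20, 7.64, 23.1 and 13.9 CPM. Aldafermin + MYC tumors held 18.9, 0.397, 30.2, 0.346 and 33.4 CPM, FGF19 + MYC tumors 0.893, 0.619, 1.39, 6.60 and 9.10 CPM and sgTrp53 + MYC tumors 0.0988, 3.79, 0.484, 2.11 and 0.138 CPM. The Aldafermin + MYC tumors were of 2 kinds, replicates 1, 3 and 5 within or above the range of the livers and replicates 2 and 4 far below it. All sgTrp53 + MYC tumors, replicate 2 included, lay below the lowest liver, and among FGF19 + MYC tumors only replicate 5 reached the range of the livers.

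Cd24a (chr10:43454280-43460264, plus strand) encodes a small glycoprotein anchored to the surface of many immature and epithelial cells. Livers held 9.75, 4.58, 4.42, 2.87 and 4.22 CPM, with replicate 1 above the rest. Aldafermin + MYC tumors held 2.21, 0.918, 2.69, 1.88 and 1.88 CPM and FGF19 + MYC tumors 1.90, 1.42, 1.53, 1.79 and 2.81 CPM, and all of them lay below the lowest liver. The sgTrp53 + MYC tumors held 0.824, 4.42, 1.93, 1.16 and 1.55 CPM, where replicate 2 was within the range of the livers and the other 4 below it.

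Levels of different genes were compared only per kilobase of exon (GENCODE M39). The length took in every annotated exon of a gene and can exceed that of the transcripts counted. It was 7049 bases for Krt7 and 1855 for Krt19, whose median levels in livers were 1.99 and 1.90 CPM. The place of Krt7 below Krt19 in livers thus rests on these lengths. In livers the median level ran from 1.76 CPM per kb for Prom1 and 1.71 for Cd24a through 1.53 for Krt23, 1.39 for Epcam, 1.02 for Krt19, 0.966 for Sox9 and 0.940 for Sox4 to 0.282 CPM per kb for Krt7. In sgTrp53 + MYC tumors Sox4 had the highest median of the 8, 3.38 CPM per kb, and Krt7 the lowest, 0.0234 CPM per kb. Krt7 was also the lowest in Aldafermin + MYC tumors (0.0159 CPM per kb) and in FGF19 + MYC tumors (0.0155 CPM per kb). Neighbors in this order, such as Krt19, Sox9 and Sox4 in livers, differed by less than the spread between libraries.

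The pooled Aldafermin + MYC and FGF19 + MYC tumors were first compared with sgTrp53 + MYC tumors, to ask whether biliary and progenitor markers differed with the partner of MYC. With all libraries, Krt19, Krt7, Epcam, Sox9 and Sox4 were lower in the pooled tumors than in sgTrp53 + MYC tumors, and none was higher. Only the call of Sox4 was shared by the group, while those of the other 4 genes rested on replicate 2. Thus 5 of the 8 genes were called lower, beside 12.1% of all genes tested, and calls in either direction made up 23.7% of all genes. Over the 8 genes the fold change had a median of -2.34 on the log2 scale (-0.02 over all genes tested) and 0.38 without replicate 2 (-0.01 over all genes).

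Sox4 differed by a log2 fold change of -2.18 ± 0.32 (SE, edgeR quasi-likelihood test, Benjamini-Hochberg adjusted p = 1.23e-04), and 9 of the 10 pooled tumors lay below all sgTrp53 + MYC tumors. Groups without any overlap were found for 0 of the 8 genes, beside 3.28% of all genes higher and 2.42% lower. Without replicate 2 the value was -2.07 ± 0.34 (adjusted p = 5.16e-04), and Sox4 passed the threshold in each of the 20 fits that left out 1 library. Krt19 gave -6.65 ± 1.18 (adjusted p = 6.09e-04) with all libraries and -1.76 ± 0.69 (adjusted p = 0.0755) without replicate 2. For Krt7 the fold change went from -6.33 ± 1.40 (adjusted p = 0.00341) to 0.68 ± 0.93 (adjusted p = 0.643). Epcam went from -3.00 ± 0.90 (adjusted p = 0.0214) to 0.52 ± 0.65, and Sox9 from -2.51 ± 0.80 (adjusted p = 0.0290) to 0.057 ± 0.63. The estimates of Krt7, Epcam and Sox9 thus changed sign when 1 library was left out, but none was then called (adjusted p = 0.643, 0.611 and 0.959). Sox9 and Epcam were not called when the Aldafermin + MYC tumors alone (-2.94 and -3.43, adjusted p = 0.0552 and 0.0502) or the FGF19 + MYC tumors alone (-2.07 and -2.56, adjusted p = 0.165 and 0.130) were compared with the sgTrp53 + MYC tumors, although the fold changes of the former were larger than the pooled ones.

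Prom1 went the other way. Its log2 fold change was 2.57 ± 1.04 (adjusted p = 0.0800) with all libraries and 3.47 ± 1.18 (adjusted p = 0.0432) without replicate 2, and it also passed the threshold without Aldafermin + MYC replicate 2 (adjusted p = 0.0485) or replicate 4 (adjusted p = 0.0469). The Aldafermin + MYC tumors alone gave 3.65 ± 1.16 against sgTrp53 + MYC tumors (adjusted p = 0.0359) and the FGF19 + MYC tumors alone 1.497 (adjusted p = 0.374). DESeq2 (adjusted p = 0.0236) and edgeR's likelihood ratio test (adjusted p = 0.0377) called the pooled difference with all libraries. Of the 10 pooled tumors, 5 lay above all sgTrp53 + MYC tumors and the others overlapped with them. Krt23 (0.39, 95% interval -0.75 to 1.53) and Cd24a (-0.054, 95% interval -0.80 to 0.70) did not pass the threshold. Without replicate 2, 1 of the 8 genes was called higher (Prom1) and 1 lower (Sox4), beside 10.4% and 10.6% of all genes.

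**Figure D2:**
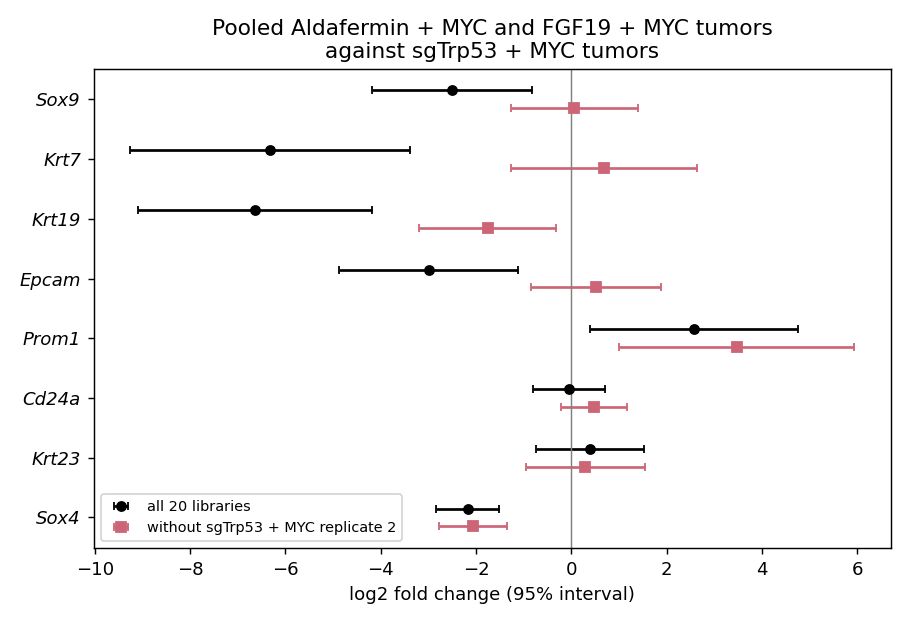
Log2 fold change of each gene, pooled Aldafermin + MYC and FGF19 + MYC tumors against sgTrp53 + MYC tumors, on the horizontal axis, with the 95% interval as a bar. Circles are from all 20 libraries and squares from 19, without sgTrp53 + MYC replicate 2. The circles of Sox9, Krt7, Krt19 and Epcam lie below 0 by more than their intervals, their squares lie nearer to or above 0, and Sox4 stays near -2.18 and -2.07.

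FGF19 + MYC and Aldafermin + MYC tumors were compared with each other because Aldafermin was designed from FGF19. None of the 8 genes was called (edgeR quasi-likelihood test, 0 at an unadjusted p under 0.05), and none was called by edgeR's likelihood ratio test or by DESeq2, which gave no adjusted p for Sox9, Krt7 and Krt19. Over all genes, 0% were called. The estimates were imprecise, with a log2 fold change of Aldafermin + MYC against FGF19 + MYC of 2.15 for Prom1 (95% interval -0.14 to 4.44), 0.87 for Krt23 (-0.44 to 2.18), -0.87 for Sox9 (-2.98 to 1.24) and -0.87 for Epcam (-3.26 to 1.51). The intervals were narrowest for Sox4 (0.32, -0.50 to 1.13) and Cd24a (0.020, -0.86 to 0.90), and widest for Krt19 (-0.046, -3.17 to 3.08) and Krt7 (-0.72, -4.64 to 3.20). Only for Cd24a did the interval stay within 1 on the log2 scale, a 2-fold difference in either direction.

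Each kind of tumor was then compared with livers, which served as the shared reference, so that these 3 comparisons are not independent of each other. In Aldafermin + MYC tumors Sox9, Epcam and Cd24a were lower than in livers. Sox9 fell by 2.96 ± 1.04 on the log2 scale (edgeR quasi-likelihood test, adjusted p = 0.0163), Epcam by 3.11 ± 1.17 (adjusted p = 0.0242) and Cd24a by 1.43 ± 0.42 (adjusted p = 0.00568). Thus 3 of the 8 genes were called lower and 0 higher, beside 31.9% and 38.4% of all genes, and 70.3% of all genes in either direction, so that the share called lower was near that of all genes. Krt7 (log2 fold change -3.50, adjusted p = 0.0854) and Krt19 (-2.31, adjusted p = 0.150) missed the threshold, although every Krt7 level lay below the livers. They passed it without sgTrp53 + MYC replicate 2 (adjusted p = 0.00465 and 0.0179), which enters this comparison only through the shared estimate of the spread. Then 5 genes were called lower, beside 32.1% of all genes. The same 5 were called lower when only these 2 groups were fitted, a fit whose share of all genes is not given here. The call of Epcam was lost without Aldafermin + MYC replicate 2 (adjusted p = 0.0528) or replicate 5 (adjusted p = 0.0555). Prom1 (0.30), Krt23 (0.13) and Sox4 (-0.30) were not called in any of these fits.

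In FGF19 + MYC tumors only Cd24a was called, lower by a log2 fold change of -1.45 ± 0.43 (adjusted p = 0.00541), so that 1 of the 8 genes was called beside 69.7% of all genes in either direction and 32.9% lower. The fold changes of Sox9 (-2.09, adjusted p = 0.0703), Epcam (-2.24, adjusted p = 0.0849), Krt7 (-2.78, adjusted p = 0.154) and Krt19 (-2.27, adjusted p = 0.167) missed the threshold. All 4 passed it without sgTrp53 + MYC replicate 2 (adjusted p = 0.0118, 0.00810, 0.0156 and 0.0207; 5 genes lower in all, beside 32.9%), and Sox9 also without FGF19 + MYC replicate 5. When only FGF19 + MYC tumors and livers were fitted, 7 genes were called lower, all but Krt23. The share of all genes called in that fit is not given here, so the 7 cannot be set beside it.

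Levels that did not overlap with those of the livers were found for 4 genes in each of these 2 comparisons. They were lower for Sox9, Krt7, Epcam and Cd24a in Aldafermin + MYC tumors, beside 27.5% of all genes, and for Sox9, Krt7, Krt19 and Cd24a in FGF19 + MYC tumors, beside 30.1% of all genes. Levels above all livers were found for 0 of the 8 genes, beside 31.3% and 32.4% of all genes.

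In sgTrp53 + MYC tumors, Sox4 was higher than in livers by a log2 fold change of 1.72 ± 0.40 (adjusted p = 7.35e-04), with 4 of 5 tumors above all livers. Prom1 was lower (-3.34 ± 1.15, adjusted p = 0.0144), as was Cd24a (-1.38 ± 0.42, adjusted p = 0.00671), and these 3 calls were made in each fit that left out 1 library. Krt19 was higher (4.36 ± 1.40, adjusted p = 0.00972), a call that was absent without replicate 2 (-0.53, adjusted p = 0.577). In all, 2 genes were called higher and 2 lower, beside 36.9% and 33.0% of all genes and 69.9% in either direction. Prom1 was the 1 gene without overlap, beside 27.4% of all genes that were lower without overlap.

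Without replicate 2, Sox9, Krt7 and Epcam were lower in the remaining 4 sgTrp53 + MYC tumors than in livers, whereas Krt19 was not called and lay within the range of the livers in 2 of the 4 tumors. Krt7 turned from 3.19 (adjusted p = 0.0802) to -3.82 (adjusted p = 0.00392), Epcam from 0.33 (adjusted p = 0.793) to -3.19 (adjusted p = 0.00139) and Sox9 from -0.021 (adjusted p = 0.986) to -2.59 (adjusted p = 0.00551). Then 5 of the 8 genes were called lower (Sox9, Krt7, Epcam, Prom1 and Cd24a) and Sox4 higher, beside 32.5% and 35.7% of all genes. Krt7 entered these fits only because the filter was set on all 20 libraries (it reached 1 CPM in 4 livers and in replicate 2), so that its calls without replicate 2 here and in the other comparisons rest on that choice. Krt7 with its positive fold change passed the threshold when replicate 1, 4 or 5 was left out instead (adjusted p = 0.0495, 0.0477 and 0.0420).

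**Figure D3:**
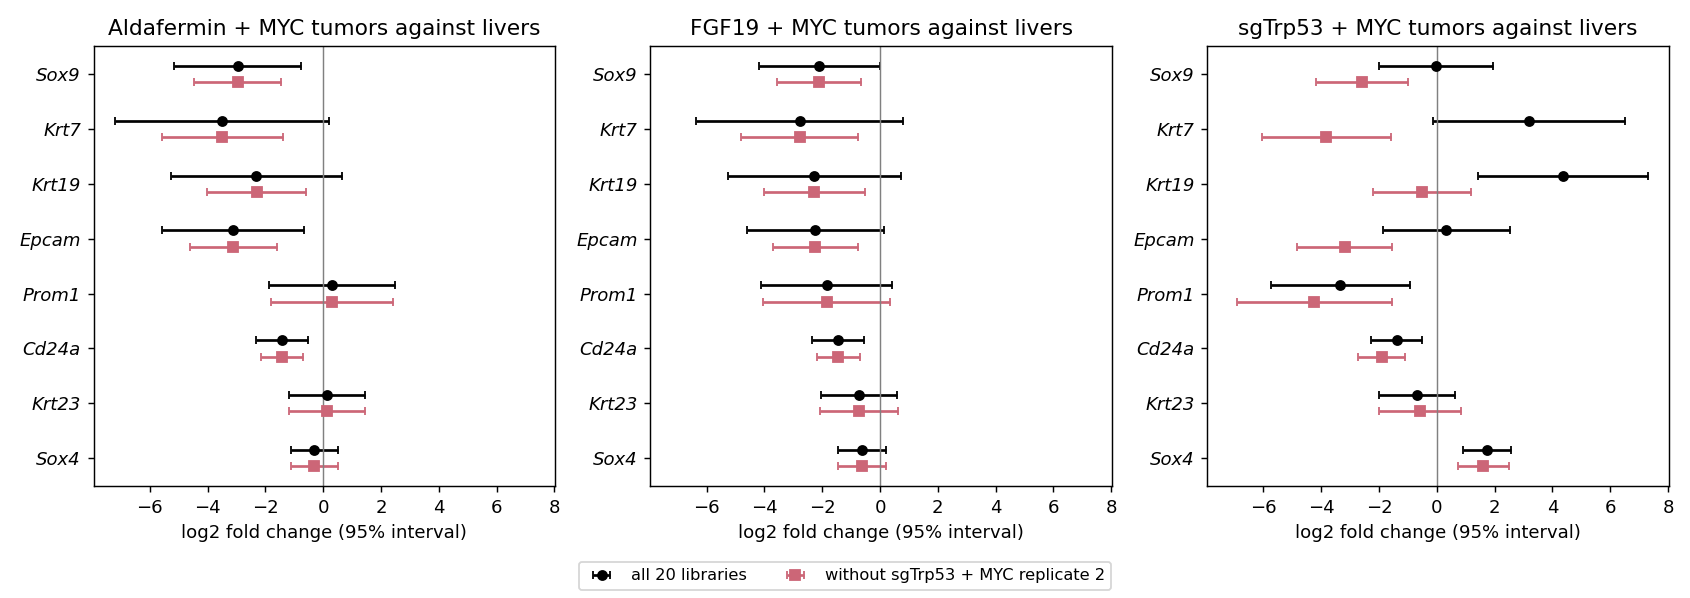
Log2 fold change of each gene against livers on the horizontal axis, with the 95% interval as a bar, for Aldafermin + MYC tumors (left), FGF19 + MYC tumors (middle) and sgTrp53 + MYC tumors (right). Circles are from all 20 libraries and squares from 19, without sgTrp53 + MYC replicate 2. Without that library the intervals of Sox9, Krt7 and Epcam lie below 0 in all 3 panels, and the interval of Sox4 lies above 0 in the right panel only.

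Some of the 8 genes also varied together among tumors of the same group. Over the 15 tumors, deviations of log2 CPM from the group means gave a Pearson's r above 0.5 in 16 of the 28 pairs of genes, with the highest between Sox9 and Epcam (0.92). Without sgTrp53 + MYC replicate 2, 12 of 28 pairs were above 0.5, and Sox9 with Epcam was again the highest (0.84, n = 14). Krt7 and Krt19 went from 0.82 to 0.42. Krt23 had a negative r with 5 of the other 7 genes in both sets, down to -0.55 with Sox9 without replicate 2. These correlations are descriptions over few tumors that share library depth and low counts. No p and no share over all pairs of genes is given.

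**Figure D4:**
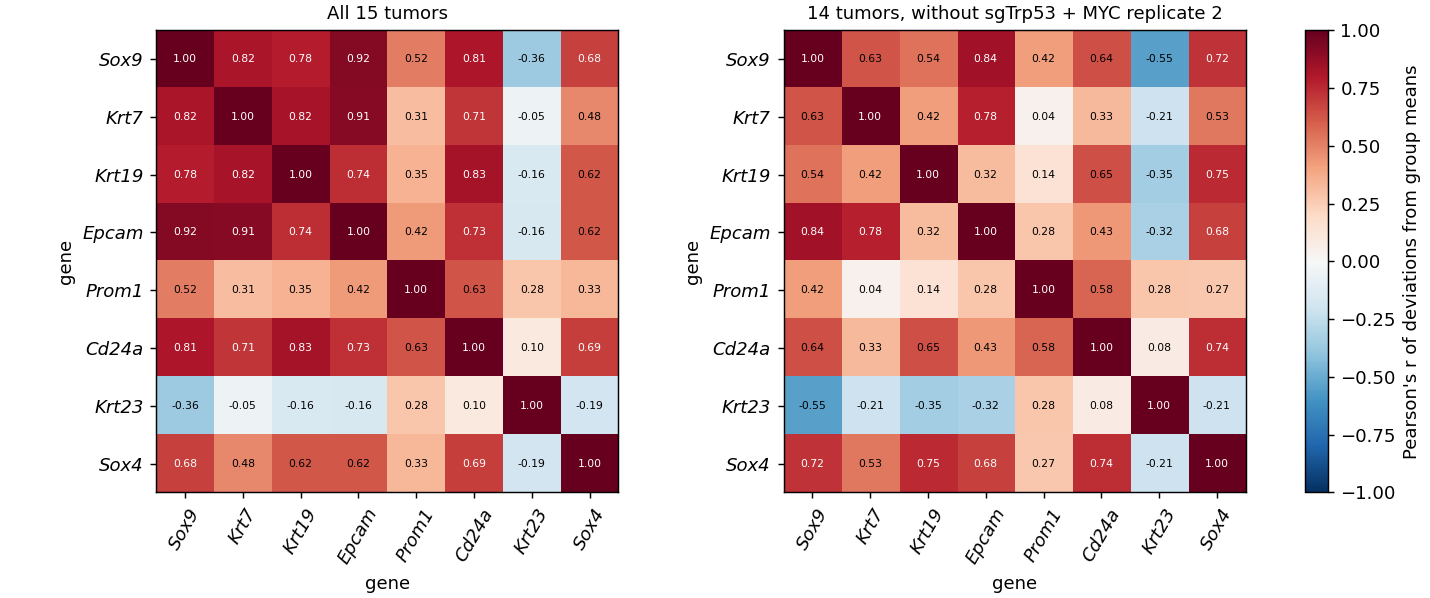
Pearson's r between the 8 genes (both axes), from deviations of log2 CPM from the group means, over all 15 tumors (left) and over 14 tumors without sgTrp53 + MYC replicate 2 (right). Red is positive and blue negative. Sox9 and Epcam are the most alike in both panels, and Krt23 is below 0 with Sox9, Krt7, Krt19, Epcam and Sox4.

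When genes averaging 10 CPM or more over the tumors were searched for like patterns, Spp1, which encodes the secreted duct protein osteopontin, was most like Sox9 (r = 0.90, n = 15) and was among the 3 most like Epcam (0.95, and 0.95 without replicate 2). Tinagl1, a gene of the extracellular matrix, was most like Krt7 (0.95), Ahnak most like Krt19 (0.89), Retsat, a retinol saturase, most like Prom1 (0.83), Bok, of the BCL2 family, most like Cd24a (0.86), Dqx1 most like Krt23 (0.87) and F11r, a tight junction protein, most like Sox4 (0.88). Without replicate 2 the genes at the top were Myl12b for Sox9 (0.90, n = 14), Cyp2a4 for Krt7 (0.87) and Chpt1 for Krt19 (0.88), whereas Retsat (0.85), Bok (0.88) and Dqx1 (0.87) stayed first for their genes. For Sox4, Gstm3 (0.90) then preceded F11r (0.89).

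Further genes of the bile ducts gave a mixed picture. Of 16 listed, 11 were tested, and in Aldafermin + MYC tumors 3 were higher and 5 lower than in livers, in FGF19 + MYC tumors 2 and 5, and in sgTrp53 + MYC tumors 3 and 5 (1 and 6 without replicate 2), beside 36.9% to 38.4% of all genes higher and 31.9% to 33.0% lower. Their median log2 fold change was -1.58, -0.90 and -0.86 (0.13, 0.06 and 0.07 over all genes tested), and -1.45 in sgTrp53 + MYC tumors without replicate 2. Aqp1, a water channel of ducts and endothelium, averaged 188 ± 27.9 CPM (SD, n = 5) in livers and 25.4, 48.2 and 12.5 CPM in Aldafermin + MYC, FGF19 + MYC and sgTrp53 + MYC tumors, with log2 fold changes of -2.88, -1.96 and -3.91 (adjusted p = 2.48e-06, 1.40e-04 and 7.60e-08). Bicc1, an RNA-binding protein of ducts and kidney tubules, rose in all 3 (2.89, 3.15 and 3.01, adjusted p = 3.63e-08, 1.24e-08 and 2.03e-08). In the pooled tumors, as compared with sgTrp53 + MYC, Aqp1 was higher (1.49, adjusted p = 0.00421) and Tspan8, a tetraspanin, lower (-3.79, adjusted p = 0.0227), the latter turning to 2.30 (adjusted p = 0.0561) without replicate 2.

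In sgTrp53 + MYC replicate 2, only some of these duct genes were raised. Of the 16, 5 had their highest tumor level there: Spp1 (466 CPM, at most 81.6 in other tumors), Tspan8 (94.4, at most 3.66), Anxa4 (191, at most 165), St14 (2.35, at most 1.93) and Cldn4 (2.07, at most 1.82). Cftr and Sctr, a channel and a receptor of mature cholangiocytes, were at 0.0700 and 0.0420 CPM there. Of the 4 further keratins of simple epithelia, Krt8 (509 CPM), Krt18 (277 CPM) and Krt80 (4.62 CPM) were also highest in this library. Of 6 mesothelial genes, Msln (5.32 CPM) and Upk1b (2.28 CPM) were highest there among tumors, and the list summed to 8.44 CPM, within the 3.48 to 17.4 CPM of livers and above the at most 1.80 CPM of the other sgTrp53 + MYC tumors, and Wt1 and Lrrn4 were at 0.140 and 0.0700 CPM. The part of ducts, mesothelium or any other admixed tissue in the levels of this library was not tested.

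Hepatocyte markers fell in every kind of tumor. All 10 listed genes were called lower than in livers in all 3 comparisons, beside 31.9% to 33.0% of all genes. An example was Tat, a tyrosine-degrading enzyme. Its log2 fold change was -5.72 in Aldafermin + MYC tumors (edgeR quasi-likelihood test, adjusted p = 6.34e-04) and -6.94 in sgTrp53 + MYC tumors (adjusted p = 1.66e-04). The list summed to 188280 to 237241 CPM in livers, 8379 to 22496 in Aldafermin + MYC, 9197 to 29590 in FGF19 + MYC and 3833 to 11560 CPM in sgTrp53 + MYC tumors, with 4466 CPM in replicate 2 of the last. FGF19 + MYC replicate 5, the tumor with the second highest Sox9, Krt7, Epcam and Cd24a, had the highest hepatocyte sum of all tumors, and Aldafermin + MYC replicate 4, the highest of its group in Krt7, had the second highest. No hepatocyte gene on the list was at 0 in these libraries, and the part of adjacent liver tissue in their marker levels was not tested.

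Most hepatoblast and progenitor genes other than the 8 were higher in tumors than in livers. Of 12 listed, 10 were tested. Compared with livers, 8 were higher and 1 lower in Aldafermin + MYC and in FGF19 + MYC tumors, and 9 higher and 1 lower in sgTrp53 + MYC tumors. Of all genes, 36.9% to 38.4% were higher and 31.9% to 33.0% lower. Without sgTrp53 + MYC replicate 2 the counts were 9 and 1, 8 and 1, and 8 and 1, beside 35.7% to 38.3% higher and 32.1% to 32.9% lower. Dlk1, a surface protein of hepatoblasts, averaged 0.363 CPM in livers and 716, 696 and 340.3 CPM in the 3 kinds of tumor. The gene that was lower in each was Lgr5, a Wnt target of pericentral hepatocytes and stem cells (-4.89, -3.95 and -4.96, adjusted p = 0.00103, 0.00375 and 7.58e-04). Of the 8 genes, with all libraries, only Sox4 and, through replicate 2, Krt19 were called higher than in livers, both in sgTrp53 + MYC tumors alone. In the pooled tumors against sgTrp53 + MYC tumors, 3 of the 10 were higher and 0 lower, beside 11.6% and 12.1% of all genes. The higher genes included Afp, the fetal serum protein (2.45, edgeR quasi-likelihood test, adjusted p = 0.00567), and Sall4, a stem cell transcription factor (3.75, adjusted p = 0.00297). In sgTrp53 + MYC replicate 2 the list summed to a level within the range of the other 4 tumors of its group. Most of that sum was H19 (13050 CPM) and Igf2 (2767 CPM). Of the 12 genes, 1 had its highest tumor level there, Cd44, at 156 CPM against at most 39.4 CPM in other tumors and 14.8 CPM in livers. Cd44 was called higher in sgTrp53 + MYC tumors than in livers (1.77, edgeR quasi-likelihood test, adjusted p = 0.0225), but not without replicate 2 (-0.077, adjusted p = 0.837).

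Notch signaling directs hepatoblasts to the duct lineage, and 13 of 14 listed genes were tested. Against livers, 3 were higher and 1 lower in Aldafermin + MYC and in FGF19 + MYC tumors, and 4 higher and 1 lower in sgTrp53 + MYC tumors (4 and 3 without replicate 2). Most of the 13 were thus not called, beside 69.7% to 70.3% of all genes called in either direction. The ligand gene Jag2 rose in all 3 (5.69, 4.57 and 6.74, adjusted p = 5.47e-04, 0.00280 and 1.42e-04), as did the receptor gene Notch3 (2.70, 2.41 and 1.90, adjusted p = 0.00157, 0.00355 and 0.0154). Hes1, a target of the pathway, was higher in the pooled tumors than in sgTrp53 + MYC tumors (0.71, edgeR quasi-likelihood test, adjusted p = 0.0473) and Rbpj lower (-0.68, adjusted p = 0.0120, but 0.0635 without replicate 2). In sgTrp53 + MYC replicate 2, 4 of the 14 genes (Jag1, Jag2, Rbpj and Nrarp) had their highest tumor level. The list summed to 316 CPM there, against at most 307 CPM in any other library.

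Of 9 other SOX genes, 6 were tested and 0 were called in the pooled tumors as compared with sgTrp53 + MYC, beside 23.7% of all genes. In that comparison Sox4 and, through replicate 2, Sox9 were called (edgeR quasi-likelihood test). Without replicate 2, Sox5 was called lower as well (-1.35, adjusted p = 0.0426). Against livers, Sox12 rose in all 3 kinds of tumor (2.25, 2.32 and 2.50, adjusted p = 2.79e-09, 1.92e-09 and 6.88e-10), and so did Sox13 (1.79, 1.72 and 1.27, adjusted p = 1.12e-04, 1.74e-04 and 0.00230). Of the further simple epithelial keratins, 3 of 4 were tested. Krt20, a keratin of gut and urothelium, was at most 0.0442 CPM in livers and averaged 26.6, 10.2 and 5.73 CPM in Aldafermin + MYC, FGF19 + MYC and sgTrp53 + MYC tumors, and it was higher in the pooled tumors than in sgTrp53 + MYC tumors (1.53, adjusted p = 0.0160).

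Among markers of other cells that a tumor sample can hold, most calls were lower than in livers. The exception was the lymphoid and myeloid list in Aldafermin + MYC tumors. Of all genes, 36.9% to 38.4% were called higher and 31.9% to 33.0% lower in these comparisons. Of 6 mesothelial genes 3 were tested, with 0 higher and 1, 2 and 2 lower in Aldafermin + MYC, FGF19 + MYC and sgTrp53 + MYC tumors. Of 6 genes of endothelium and stellate cells all were tested, with 1 higher and 4 lower in each kind of tumor. Of 9 lymphoid and myeloid genes 5 were tested, with 2 higher and 1 lower, 0 and 1, and 0 and 2, and of 5 erythroid genes 3 were tested, with 0 higher and 1, 2 and 2 lower.

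**Figure D5:**
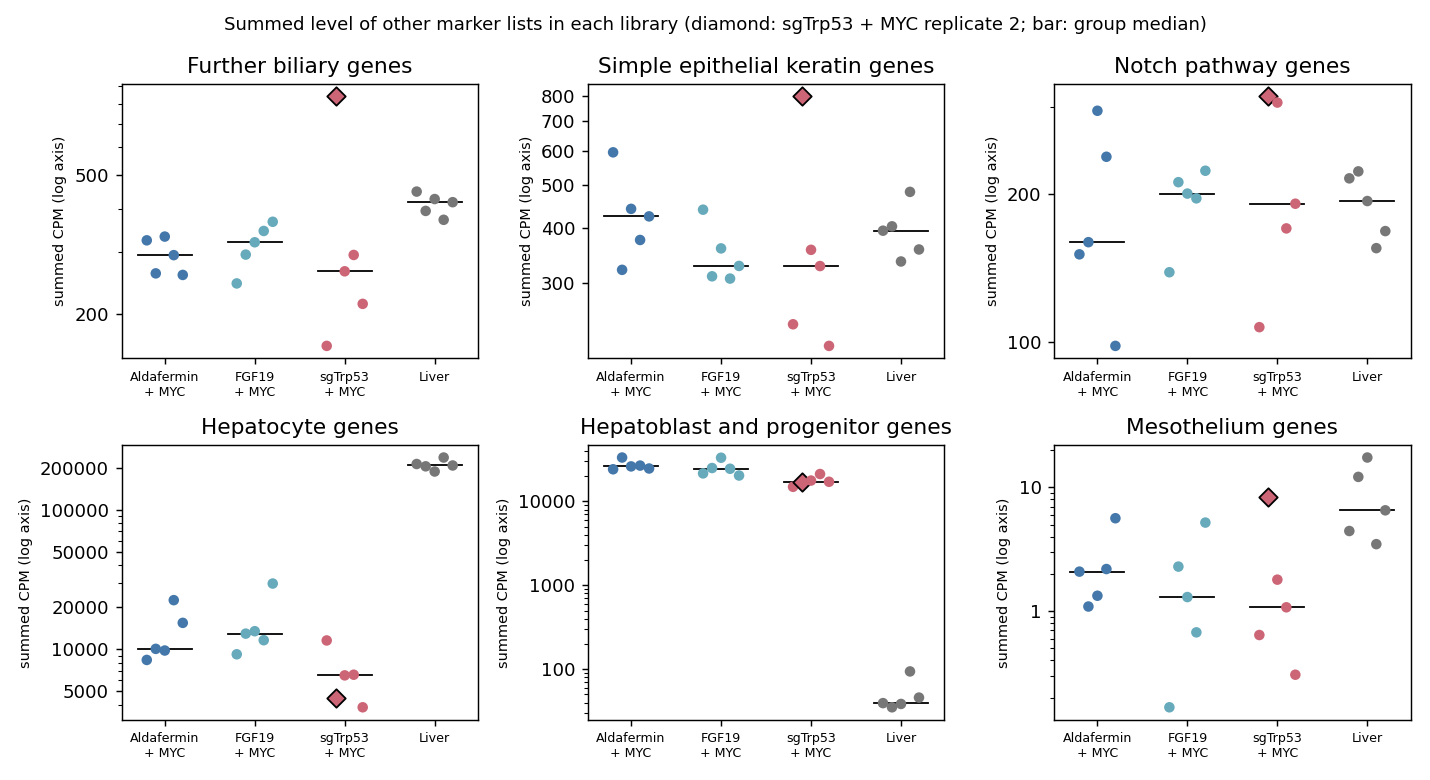
Summed CPM of 6 gene lists in each library, on a log axis, by group on the horizontal axis. Each point is 1 library, the diamond is sgTrp53 + MYC replicate 2 and the bar is the group median. The diamond is the highest library for further biliary genes and simple epithelial keratin genes and lies among the other sgTrp53 + MYC tumors for hepatocyte and hepatoblast genes, and all tumors lie below the livers in hepatocyte genes.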

How the data were processed

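RNA of 15 tumors and 5 livers was sequenced by the authors as 150 base pair paired-end reads from stranded mRNA libraries. Per the submitters' processing notes and the methods, reads were demultiplexed with bcl2fastq 2.20.0.422, aligned with HISAT2 (version not given in the sources used here) to mm39 and counted with htseq-count using the NCBI RefSeq annotation. The authors deposited raw counts, not normalized, in 2 tables of 50559 genes. The 5 summary lines of htseq-count, which held 33.7% to 56.2% of the reads of a library, were left out of library sizes and tests.

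Counts were analyzed in R 4.3.3 with edgeR 4.0.16 (limma 3.58.1). Genes that reached 1 CPM in 5 or more libraries were tested, libraries were scaled by the TMM method, and 1 quasi-likelihood model with the 4 groups and no covariate was fitted to all 14333 genes. Benjamini-Hochberg adjustment was made over all of them, and genes with an adjusted p under 0.05 were called. CPM values are on the TMM scale. Standard errors were derived from the F statistic, and 95% intervals from the t distribution. Log2 CPM for correlations used a prior count of 2. The tests were checked on simulated counts.

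Groups came from titles and treatment labels, 5 libraries in each. Replicate numbers belong to different mice. They did not pair the samples: over 30 pairs of libraries with the same number, the correlation of deviations from the group means ran from -0.33 to 0.33 and was over 0.1 in 6. None of the libraries were duplicates. The alternatives were DESeq2 1.42.0, edgeR's likelihood ratio test, other scaling factors (RLE, upper quartile), other filters (none, filterByExpr), only the compared groups, the replicate number as a block, each FGF group alone against sgTrp53 + MYC, and each library left out in turn. Correlations and list counts without sgTrp53 + MYC replicate 2 were added after the data were seen.

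The 8 genes and the 10 gene lists (further biliary, hepatoblast and progenitor, Notch pathway, simple epithelial keratin, other SOX, hepatocyte, mesothelium, lymphoid and myeloid, erythroid, endothelium and stellate) were chosen with earlier results of these data known. All 8 genes are named, along with, per list and comparison, the called genes with the 2 highest and 2 lowest log2 fold changes at a mean of at least 1 CPM. Not all of these are printed. For likeness, the 3 genes with the highest correlation were taken among those with at least 10 CPM in tumors. List genes whose levels in sgTrp53 + MYC replicate 2 are given, and the genes of the closing observations, were chosen after their values were seen. Gene positions and exon lengths are from GENCODE M39 on GRCm39, and upstream sequences from RefSeq, which held windows for 5 of the 8 genes.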

Additional observations from a re-analysis of the deposited data

Results flagged for a closer look

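In 7 of the 32 sets of 5 libraries (8 genes in 4 groups), 1 library was farther from the rest than Dixon's 95% critical value allows, its gap to the nearest library being given as a share of the whole range. For independent sets of normally distributed values, chance gives about 1 in 20, or 1.6 sets. CPM values of correlated genes with low counts need not meet these conditions, so 7 cannot be set strictly against 1.6. In 4 of them the library was sgTrp53 + MYC replicate 2, with a gap of 0.997 of the range for Krt7, 0.988 for Krt19, 0.974 for Epcam and 0.953 for Sox9. The other 3 were FGF19 + MYC replicate 5 for Sox9 (0.786), liver replicate 1 for Cd24a (0.751) and Aldafermin + MYC replicate 4 for Krt7 (0.722).

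The change from liver to tumor differed between FGF19 + MYC and Aldafermin + MYC tumors (pooled) and sgTrp53 + MYC tumors for 5 genes, by the edgeR contrast of the groups itself. The differences on the log2 scale, pooled minus sgTrp53 + MYC, were -6.65 for Krt19, -6.33 for Krt7, -3.00 for Epcam, -2.51 for Sox9 and -2.18 for Sox4. Without sgTrp53 + MYC replicate 2 they were -1.76, 0.68, 0.52, 0.057 and -2.07, of which only that of Sox4 passed the threshold.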

How the results depend on the processing

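Over the 8 genes and 5 comparisons, 297 of 321 fold changes under other settings with all libraries kept their direction and side of the threshold, 10 fell short of it, 14 newly passed it and 0 reversed. With 1 library left out, 777 of 800 kept both, 3 fell short, 14 newly passed and 6 reversed, all 6 without sgTrp53 + MYC replicate 2. The number of the 8 genes called in the pooled tumors against sgTrp53 + MYC tumors was 5, but 3 by DESeq2, 3 with the FGF19 + MYC tumors alone, and 2 to 6 with 1 library left out. Against livers it was 3 in Aldafermin + MYC tumors, but 5 with only the compared groups and 2 to 5 with 1 library left out. In FGF19 + MYC tumors it was 1, but 2 by DESeq2, 3 by the likelihood ratio test, 7 with only the compared groups and 1 to 5 with 1 library left out. In sgTrp53 + MYC tumors it was 4, and 4 to 6 with 1 library left out. Between Aldafermin + MYC and FGF19 + MYC tumors it was 0 in every fit, while over all genes 0 were called but 96 by DESeq2, 59 by the likelihood ratio test and 2 with RLE factors. DESeq2 gave no adjusted p for Sox9, Krt7 and Krt19, which are not counted as lost.

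With 1 library left out, the fold change of the pooled tumors against sgTrp53 + MYC tumors ranged from -2.93 to 0.057 for Sox9, -6.99 to 0.68 for Krt7 and -3.31 to 0.52 for Epcam. That of sgTrp53 + MYC tumors against livers ranged from -3.82 to 3.51 for Krt7, -0.53 to 4.68 for Krt19 and -3.19 to 0.64 for Epcam.

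With the replicate number as a block, 1 of the 8 genes (Sox4) was called in the pooled tumors against sgTrp53 + MYC tumors and 3 in sgTrp53 + MYC tumors against livers, where Krt19 lost its call (log2 fold change 1.39, adjusted p = 0.474). The numbers do not mark a pairing, and the block changed no call in the other 3 comparisons. The cause of these changes was not tested. Depth limited Krt7 most, with at most 55 reads in any library but 1, so that folds between libraries with few reads are imprecise.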

Other observations

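Besides Krt7, Krt19 and Epcam, the genes in which sgTrp53 + MYC replicate 2 most exceeded the other 14 tumors were of varied kinds, of which 6 are given here, chosen after their values were seen. Wfdc2, which encodes a secreted epithelial protein, was at 58.2 CPM, against at most 1.98 CPM in other tumors and 11.9 CPM in livers. S100a6, a calcium-binding protein, was at 411 CPM, against 22.5 and 1.47 CPM. The integrin genes Itga2 and Itga3 were at 31.5 and 119 CPM, against at most 2.24 and 10.2 CPM in other tumors. Igf2bp2, which encodes an RNA-binding protein of fetal tissue, was at 32.0 CPM, against 1.81 CPM, and Btc, a ligand of the EGF receptor, at 12.4 CPM, against 0.885 CPM. These are values of a single library, with no replicate.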
